A study of Mus musculus with 3 samples.

Results

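The periderm is the outermost, transient cell layer of embryonic skin. It covers the stratifying epidermis, seals its surface with tight junctions, and is shed before birth as the cornified layer forms beneath it. It is known for keratins that basal and spinous keratinocytes use little, among them Krt4, Krt6a, Krt8, Krt17, Krt18 and Krt19, and for claudins of the apical junctions. These cells were looked for in back skin of male C57BL/6 mice, sequenced cell by cell from the 3' ends of transcripts caught in droplets. There was 1 library of pooled animals each at E13.5, E16.5 and P0. Embryonic skin was digested with trypsin and P0 skin with collagenase IV. No transgene or treatment is named for any animal. A periderm-rule cell was a cell of E13.5 or E16.5 in which at least 3 of the 5 genes Krt4, Krt19, Cldn4, Gabrp and Krt6a had a unique molecular identifier (UMI, 1 captured transcript), at least 3 of the 5 epithelial genes Perp, Sfn, Cdh1, Dsp and Krt5 had one, and Pdgfra, a fibroblast gene, had none. The rule was met by 86 of 5962 cells at E13.5 and by 4 of 5208 cells at E16.5, together 90 of the 16235 cells of the series. The other cells with at least 3 of the epithelial genes and no Pdgfra formed the reference, 337 at E13.5 and 1057 at E16.5.

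Each stage has 1 library, so differences could not be compared with a spread between replicates and were not tested. Values are UMIs summed over the cells of a group per 1000000 UMIs of that group (CPM). Differences are log2 ratios of CPM after adding 10 to each, members minus reference, followed in the same brackets by a 95% interval built from exact Poisson limits of both sums, which covers counting error only. The members held 999439 UMIs at E13.5 and 177984 at E16.5. A rule that counts genes with a UMI favours deep cells: the median was 10272 UMIs in members against 5963 in the reference at E13.5, and 49558 against 13102 at E16.5. The same cells chose the members and gave the levels, so the levels are descriptions. The libraries of E13.5 and E16.5 shared 44 barcodes.

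The genes of the rule code for surface keratins, a claudin and a channel subunit. Krt4 (chr15:101918535-101924735, GRCm38) and Krt6a (chr15:101689910-101694307) lie in the type II keratin cluster, and Krt19 (chr11:100140810-100148665) lies in the type I cluster with Krt17 and Krt15. Cldn4 (chr5:134945119-134946934) codes for a tight junction claudin and lies near Cldn3 (chr5:134986214-134987472). Gabrp (chr11:33550781-33578959) codes for the pi subunit of the GABA-A receptor. Keratins of a cluster resemble each other in sequence. Krt6a has a near copy, Krt6b, that was not analysed here. How reads that fit both genes were counted was not examined, so the UMIs of Krt6a are uncertain.

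At E13.5 the members made up 20.3% of the 423 epithelial-rule cells (exact binomial interval 16.6 to 24.5%). The share depended on the rule and on depth: it was 10.6% when the rule was applied after thinning every cell to 3400 UMIs, 4.49% with at least 4 of the 5 genes and 40.9% with at least 2. At E16.5 they made up 0.377% of 1061 cells (0.103 to 0.962%). A further 24 cells at E13.5 and 3 at E16.5 met both gene counts but had Pdgfra. The shares rest on single libraries of different depth, and stage and library cannot be told apart.

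**Figure D1:**
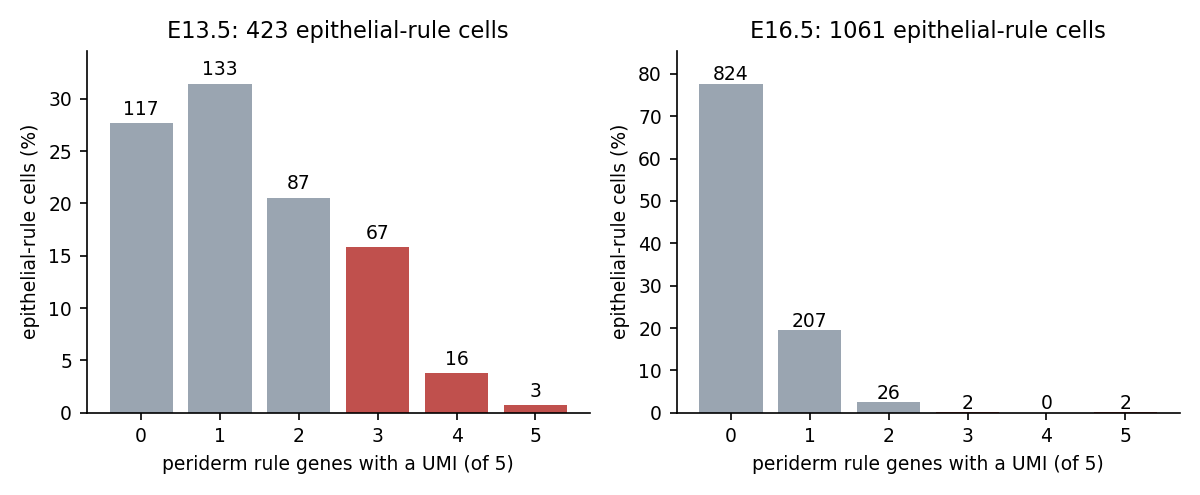
Share of epithelial-rule cells (y axis, percent) by the number of the 5 periderm rule genes with a UMI (x axis), with the number of cells above each bar and the cells that met the rule in red. At E13.5 the counts pass from 133 cells with 1 gene through 87 with 2 and 67 with 3 to 3 with all 5, whereas at E16.5 only 2 cells have 3 genes and 2 have all 5.

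The number of rule genes per cell graded into the reference at E13.5. Of the epithelial-rule cells 117 had none of the 5 genes, 133 had 1, 87 had 2, 67 had 3, 16 had 4 and 3 had all 5. Gabrp was seen in 85 of the 86 members, Cldn4 in 83 and Krt19 in 79, whereas Krt6a was seen in 17 and Krt4 in 16. Just outside the threshold, the 87 cells with 2 genes held 1633 CPM of Krt17, 262 of Krt7 and 201 of Upk1b. Just inside it, the 67 cells with 3 genes held 2325, 457 and 258 CPM of the same genes. The 117 cells with no rule gene held 113, 25.4 and 9.23 CPM, so that the cells just outside stood nearer to the members in Krt17 and Upk1b than to the cells with none.

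At E13.5 the members were distinguished from the other epithelial cells by simple-epithelial keratins, claudins and uroplakins, and by low levels of some basal and Wnt pathway genes. Krt17 (chr11:100256217-100261029), a keratin of periderm and of stressed or appendage epithelium, was at 2448 CPM against 605 (2.00, 1.91 to 2.09). Krt7 (chr15:101411043-101430313), a keratin of simple epithelia, was at 508 CPM against 105 (2.17, 1.97 to 2.37). Krt8, which pairs with Krt18 in filaments of simple epithelia, was at 155 CPM against 36.1 (1.84, 1.52 to 2.15). Krt18 was at 152 CPM against 31.7 (1.96, 1.63 to 2.28). Of the 7566 genes with at least 50 UMIs over both groups and not used by the rule, 206 were at least 2-fold higher in members on the scale of CPM plus 10, with an interval above 0, 2.72%, and 151 were at least 2-fold lower with an interval below 0, 2.00%. The median log2 difference of all these genes was -0.01. In what follows, higher and lower as counts of genes mean these limits. The filter sums the UMIs of both groups, so genes high in members pass it more easily.

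Of 20 periderm or surface-epithelium genes of the table that the rule did not use, 12 had at least 50 UMIs. Of these 12, 11 were higher and none was lower, with a median of 1.90. Besides the keratins these were the claudins Cldn3, Cldn6, Cldn7, Cldn8 and Cldn23, the uroplakin Upk1b and the transcription factor Grhl3. Tgfb3, a growth factor known from palate fusion, was at 14.01 CPM against 13.6 (0.02, -0.50 to 0.57). The other 8 had too few UMIs: Krt13 and Muc1 had none in members, Ehf and Krt16 had 1 each, Krt23 and Lgals3 had 3 each, Elf3 had 12 and Upk3b had 13.

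Tight junction genes were next. Of 19 such genes 16 had enough UMIs, of which 7 were higher and none lower, with a median of 0.95. Cldn3 was at 454 CPM against 86.2 (2.27, 2.06 to 2.48) and Cldn23 at 143 CPM against 22.5 (2.24, 1.89 to 2.58). Marveld2, which codes for tricellulin of tricellular junctions, was at 55.0 CPM against 17.0 (1.27, 0.84 to 1.69), and Marveld3, a relative, at 30.0 CPM against 9.21 (1.06, 0.56 to 1.54). The scaffold gene Tjp1 was at 42.0 CPM against 40.5 (0.04, -0.39 to 0.47).

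Genes of the apical membrane followed. Upk1a and Upk1b code for uroplakins, membrane proteins of the urothelial surface. Upk1a was at 172 CPM against 33.2 (2.08, 1.76 to 2.39). Upk1b (chr16:38773184-38800328) was at 295 CPM against 64.1 (2.04, 1.79 to 2.29). Anxa1, an annexin abundant in surface epithelia, was at 984 CPM against 186 (2.34, 2.19 to 2.50), and S100a14, a calcium-binding protein of epithelia, at 347 CPM against 90.7 (1.83, 1.61 to 2.05). Of 16 apical membrane and cytoskeleton genes with enough UMIs, the higher ones included Anxa1, S100a14 and Ezr, and 1 was lower, Msn. Ezr, ezrin of the apical cortex, was at 293 CPM against 129 (1.12, 0.91 to 1.34), and Msn, its relative moesin, at 18.0 CPM against 49.4 (-1.08, -1.57 to -0.58).

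Few genes of terminal differentiation were present at E13.5. Tgm1, the transglutaminase that crosslinks the cornified envelope, was at 64.0 CPM against 17.3 (1.44, 1.02 to 1.85). Ppl, the envelope and desmosome linker periplakin, was at 223 CPM against 59.7 (1.74, 1.47 to 2.01), and Lor, the envelope protein loricrin, at 59.0 CPM against 16.2 (1.40, 0.97 to 1.81). Of 22 granular and cornified genes in the table, 5 had enough UMIs and 3 of these were higher, while 13 had no UMI in members, Flg, Ivl and Sprr1b among them. The spinous keratin Krt10 was at 73.0 CPM against 71.9 (0.02, -0.33 to 0.37) and its partner Krt1 at 19.0 CPM against 20.3 (-0.06, -0.57 to 0.46). Among 7 desmosome genes with enough UMIs, Dsc2 and Dsg2, cadherins of simple epithelia, were higher and none was lower. Dsc2 was at 100.1 CPM against 26.5 (1.59, 1.23 to 1.95) and Dsg2 at 68.0 CPM against 28.4 (1.02, 0.63 to 1.41). Within the clusters of low collagen described later, 1 of 5 desmosome genes, Dsc2, was higher.

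Protease control genes formed a further group. The membrane protease St14 (matriptase), its partner protease Prss8 and their inhibitors Spint1 and Spint2 were higher, 4 of 5 genes of the list with enough UMIs. Spint2 was at 819.5 CPM against 303 (1.41, 1.27 to 1.54) and Prss8 at 51.0 CPM against 15.8 (1.24, 0.80 to 1.67).

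Several regulators of the basal layer and of Wnt signalling were lower. Trp63, the master regulator of stratified epithelium, had 8 UMIs in the members and was at 8.004 CPM against 62.3 (-2.01, -2.47 to -1.45). Lef1, a Wnt effector of placodes, was at 11.01 CPM against 83.3 (-2.15, -2.62 to -1.62), and Kremen2, a Dkk receptor of the Wnt pathway, at 10.0 CPM against 104 (-2.51, -2.97 to -1.98). Sostdc1, a Wnt and Bmp inhibitor, was at 5.00 CPM against 38.3 (-1.69, -2.12 to -1.11). Of 5 placode and follicle genes with enough UMIs, Lef1 and Sostdc1 were lower and none was higher. Of the others, Sox9 was at 58.0 CPM against 34.6 (0.61, 0.20 to 1.01), Wnt10a at 31.0 CPM against 16.6 and Bmp2 at 9.01 CPM against 25.4 (-0.90, -1.40 to -0.33). Of 8 basal epidermis genes with enough UMIs, 4 were lower (Trp63, Bcam, Postn and Sostdc1) and none was higher, and the median was -1.09. Krt14 was at 468 CPM against 721 (-0.61, -0.76 to -0.47). Other basal keratins did not share this: Krt15 was at 150.1 CPM against 166.9, and Krt5, which the rule used, was at 1065.6 CPM against 401.3.

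Among transcription factors of the epithelium, 24 had enough UMIs, of which 2 were higher (Grhl3 and Ovol2) and 2 lower (Trp63 and Gata3). Grhl3, needed for the surface barrier, was at 275 CPM against 105 (1.31, 1.08 to 1.53), and Gata3 at 10.0 CPM against 54.2 (-1.68, -2.16 to -1.14). In the Tgf-beta and Bmp list of 11 genes with enough UMIs, Tgfb2 and Id1 were higher, and Tgfb1, Fst, Id2 and Id3 were lower. Tgfb2 was at 176 CPM against 77.4 (1.09, 0.82 to 1.36) and Id3 at 72.0 CPM against 178 (-1.20, -1.53 to -0.88). Notch1, the receptor gene, was the 1 higher gene of 6 in the Notch pathway, at 234 CPM against 109 (1.04, 0.80 to 1.27). It was not among the higher genes within the clusters of low collagen described later.

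Other genes with the highest differences were in no periderm list. Adtrp, which codes for a membrane hydrolase of lipids, was at 119 CPM against 12.5 (2.52, 2.14 to 2.88). Slc2a3, a glucose transporter, was at 1118 CPM against 232 (2.22, 2.08 to 2.36), and Slc2a1, another, at 144 CPM against 74.1 (0.87, 0.59 to 1.16). Penk, which codes for proenkephalin, was at 819.5 CPM against 185 (2.09, 1.93 to 2.24). Of the cell cycle inhibitors, Cdkn1a was at 143 CPM against 32.8 (1.84, 1.51 to 2.16). Cdkn2b was at 77.0 CPM against 8.48 (2.24, 1.82 to 2.63), with 29.9% of its UMIs in members in 1 cell. The inhibitors were not raised as a group: Cdkn1c was at 832.5 CPM against 1187.6 and Cdkn1b at 44.02 against 40.17. Of 8 cell cycle exit genes with enough UMIs, 2 were higher and none lower.

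**Figure D2:**
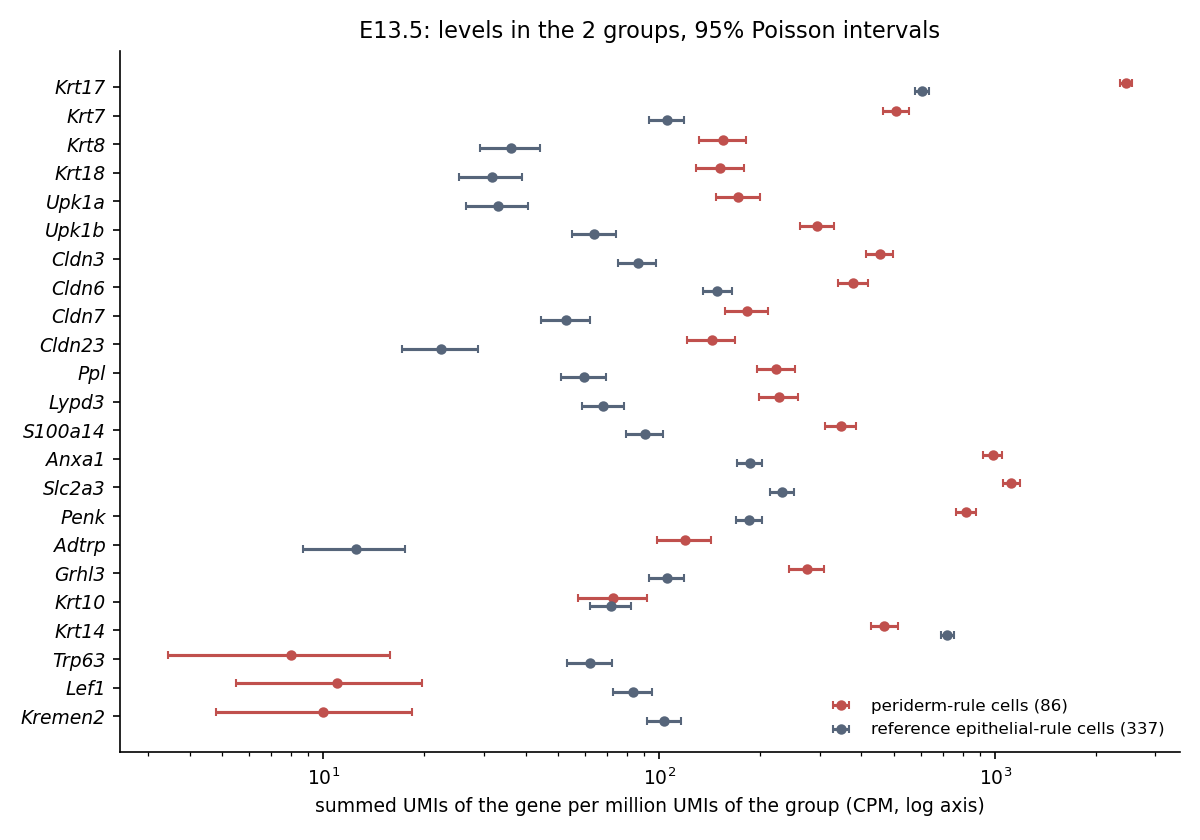
Levels at E13.5 of 23 genes (rows) in the 86 periderm-rule cells (red) and the 337 reference cells (grey), as CPM of summed UMIs on a log axis, with bars for 95% Poisson intervals of counting error. The genes from Krt17 to Grhl3 lie to the right in members, Krt10 overlaps, and Krt14, Trp63, Lef1 and Kremen2 lie to the left.

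Single cells varied widely. Per 10000 UMIs of a cell, Krt17 ranged from 1.51 through a median of 19.9 to 89.6 in the members and had a median of 1.95 in the reference, where the highest cell reached 94.7. Krt7 ranged from 0 through a median of 4.01 to 23.5 in members, with a reference median of 0 and a highest reference cell of 36.3. The ranges of members and reference overlapped for both genes.

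When every cell was thinned to 3400 UMIs, the members still had the highest shares of cells with Krt7 and Upk1b. Their share with Trp63 was below that of the reference. Krt7 was then seen in 72.1% of members (exact binomial interval 61.4 to 81.2%), 23.7% of the reference (19.3 to 28.7%) and 0.826% of endothelial cells (0.100 to 2.95%), and in 91.9% of members and 36.5% of the reference without thinning. Upk1b was seen in 52.3% of members, 16.3% of the reference and 0.413% of endothelial cells, and in 74.4% and 23.4% of the first 2 without thinning. Trp63 was seen in 2.33% of members (0.283 to 8.15%) and 11.9% of the reference (8.62 to 15.8%), and in 6.98% and 23.4% without thinning. The endothelial cells, which should lack these genes, had a median of 8605 UMIs before thinning.

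The reference at E13.5 was mixed, and so in part were the members. The epithelial-rule cells were clustered without the 11 rule genes, which gave 9 clusters. Of the 86 members 48 lay in clusters 6 and 7, in which 64.7% and 76.5% of the cells were members. Of the other 38, 15 lay in cluster 1, led by Dqx1, Tac1 and Tlx3, and 7 in cluster 8, led by muscle genes such as Actc1 and Myog. A further 6 lay in cluster 4, led by the lymphatic gene Ccl21a and macrophage genes such as Pf4 and C1qb, and 5 in cluster 2, led by globins. Cluster 0, led by Prss34, Cpa3 and muscle genes, held 4. Cluster 5 held 1, and was led by Krtdap and Lgals7, with the endothelial genes Cdh5 and Aplnr also among its leading genes. Cluster 3, led by Irx4, Gjb6 and Kremen2, had no member. The leading genes of clusters 6 and 7 included Penk, Krt17 and Adtrp in cluster 6 and Cldn23, Anxa1, Krt7 and Upk1b in cluster 7.

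Genes of other tissues moved with this split. Col1a1, the fibroblast collagen, was at 128 CPM in the 48 members of clusters 6 and 7 and at 1276 in the other 38, and Hbb-y, an embryonic globin, at 883 and 11549 CPM. In the same cells Krt17 was at 2900 and 1420 CPM, Krt7 at 626 and 239, and Upk1b at 361 and 144. Over all members, the summed level of 8 dermal genes was 1892 CPM against 3456 in the reference, that of 5 endothelial genes 22.0 against 101, of 6 immune genes 63.0 against 245, of 5 muscle genes 147 against 233 and of 6 erythroid genes 6936 against 11209. Of these lists 2 of 7, 2 of 2, 4 of 4, 0 of 4 and 1 of 6 genes with enough UMIs were lower and none was higher, and Pdgfra, which the rule used, was the only gene at 0 in members. The doublet caller marked 0 of 5962 cells at E13.5, too few to be used. The part of other cells' RNA in the values above was not tested.

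**Figure D3:**
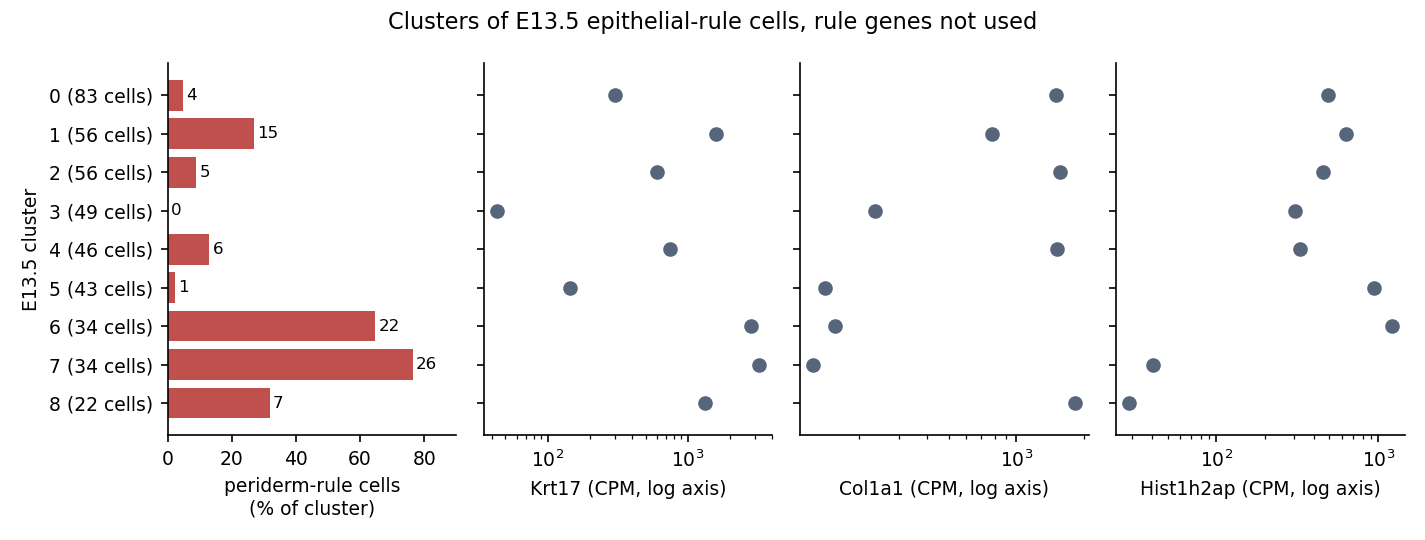
The 9 clusters of E13.5 epithelial-rule cells (rows), with the share of periderm-rule cells in percent and their number (left) and the levels of Krt17, Col1a1 and Hist1h2ap in CPM on log axes. Clusters 6 and 7 hold 22 and 26 members and the highest Krt17 with little Col1a1, and they differ in Hist1h2ap, a histone gene of dividing cells.

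The comparison was repeated within clusters of low collagen. Clusters 3, 5, 6 and 7, with Col1a1 under 500 CPM, a limit set after the data had been seen, held 49 members and 111 reference cells. Of these members 48 lay in clusters 6 and 7, and of these reference cells 20. The clusters were built from variable genes other than the rule genes. The values below thus largely describe the split between clusters and do not test it. Summed over 5 endothelial genes, the 111 reference cells held 116 CPM against 9.91 in the members. Of 5277 genes with enough UMIs, 232 were higher in members, 4.40%, and 150 were lower, 2.84%. Of these, 161 were also among the 206 higher in the whole set and 69 among the 151 lower. All 11 periderm genes with enough UMIs were higher, with a median of 2.33. Some passed the filter only through the members, such as Krt8 with 124 UMIs in members and 23 in these reference cells. The count thus leans on the filter. Krt17 was at 2863 CPM against 561 (2.33, 2.21 to 2.46), Cldn3 at 509 CPM against 66.6 (2.76, 2.45 to 3.08) and Krt8 at 176 CPM against 18.7 (2.69, 2.22 to 3.16). Of 8 basal epidermis genes 7 were lower: Krt14 was at 388 CPM against 1128 (-1.52, -1.70 to -1.33) and Trp63 at 8.49 CPM against 114 (-2.74, -3.28 to -2.08). Krtdap, a gene of the spinous layer, was at 89.2 CPM against 268 (-1.49, -1.86 to -1.13). The 6 genes just named had larger differences there than in the whole set, while others had smaller ones: Grhl3 was at 327 CPM against 146 (1.11, 0.84 to 1.38) and Spint2 at 968 CPM against 402 (1.25, 1.08 to 1.41). Notch1 at 307 CPM against 174 (0.79, 0.52 to 1.05), Dsg2 at 89.2 CPM against 44.7 (0.86, 0.40 to 1.32) and St14 at 58.0 CPM against 26.8 (0.89, 0.34 to 1.42) were no longer among the higher genes.

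The 20 reference cells of clusters 6 and 7 were close to the members in genes the rule did not use. Krt17 was at 3451 CPM in these cells, Krt7 at 539, Upk1b at 388, Cldn3 at 405 and Anxa1 at 973, beside 2900, 626, 361, 516 and 1237 CPM in the 48 members. Their median depth was 7599 UMIs against 12062 in the members. Of the rule genes, Krt19 was at 46.3 against 433 CPM and Gabrp at 984 against 1064. Krt14 was at 1309 against 360.0 CPM.

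The members of clusters 6 and 7 differed in cell cycle genes, among others. The 22 members of cluster 6 held 3312 CPM summed over 18 genes of the G2 and M phases, and the 26 of cluster 7 held 601. Top2a, the topoisomerase of dividing cells, was at 368 against 27.5 CPM, Mki67 at 147 against 24.4, and Aurkb, a mitotic kinase, had 50 UMIs in cluster 6 and 0 in cluster 7. The histone Hist1h2ap, named after its values were seen, was at 1156 against 39.7 CPM. At 3400 UMIs per cell the median member held 18 UMIs of the 34 S, G2 and M genes in cluster 6, with a range of 4 to 31, and 3 in cluster 7, with a range of 0 to 11. The ranges overlapped.

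Periderm genes were high in both clusters and mostly somewhat higher in cluster 7. Krt17 was at 2617 CPM in cluster 6 and 3218 in cluster 7, Krt7 at 518 and 748, Cldn3 at 428 and 614, Anxa1 at 872 and 1645, and Krt18 at 117 and 247, whereas Krt8 was at 183 and 174. The cell cycle inhibitor Cdkn1a was at 139 and 232 CPM. Outside the cycle, Krtdap was at 145 and 6.11 CPM, Krt14 at 191 and 549.5, and Igfbp2, which codes for a binding protein of insulin-like growth factors, at 659.6 and 1945. Over all E13.5 members, none of the 18 G2 and M genes was lower than in the reference by the limits above, and of 16 S phase genes Rrm2 alone was, at 71.0 CPM against 165 (-1.11, -1.44 to -0.79). Clusters 6 and 7 were built from these genes among others, so their values describe the split and do not test it.

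**Figure D4:**
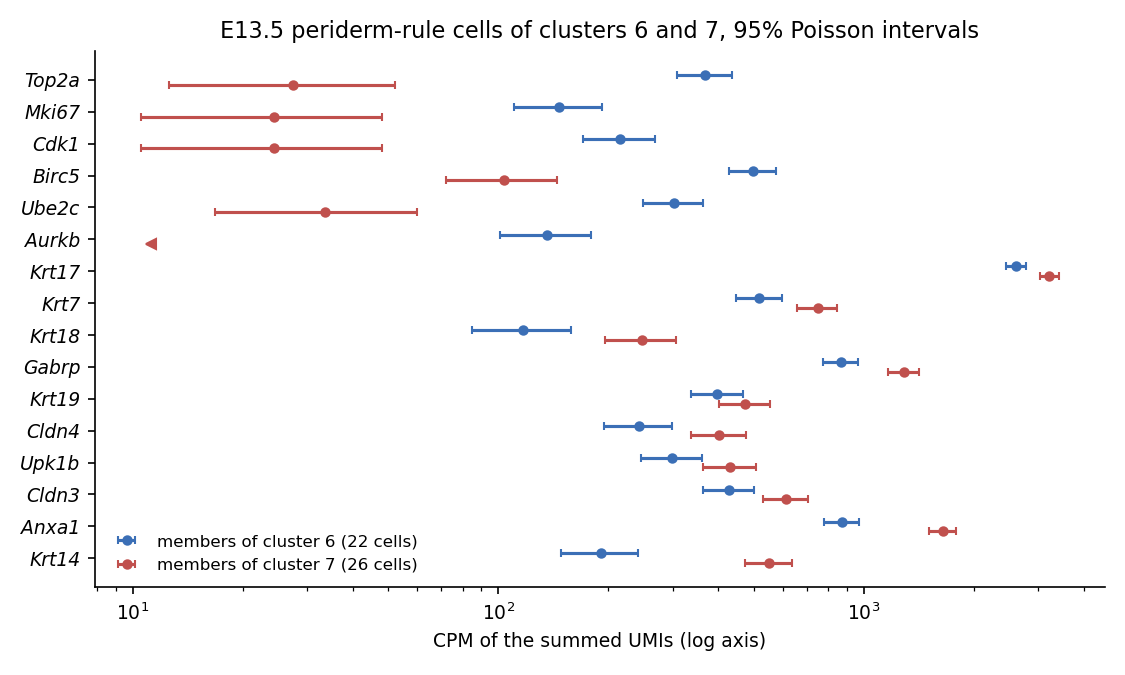
Levels of 16 genes (rows) in the E13.5 periderm-rule cells of cluster 6 (blue, 22 cells) and cluster 7 (red, 26 cells), in CPM on a log axis with 95% Poisson intervals. The 6 cell cycle genes from Top2a to Aurkb lie far apart, with Aurkb at 0 in cluster 7 and drawn as an arrow at its upper limit, while most periderm genes below lie closer together.

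The members were also set against cells of the epidermal layers. Within the E13.5 reference, 19 cells had Krt1 and Krt10 at 0 and at least 3 of Krt14, Krt15, Col17a1, Itgb4 and Itga6 (basal-rule), and 33 cells had at least 3 of Krt1, Krt10, Krtdap, Sbsn and Dmkn (suprabasal-rule). Of the members 3 and 5 met these rules too. Against basal-rule cells, 8.42% of 3644 genes were higher and 2.00% lower in members. Against suprabasal-rule cells, 5.37% of 4150 genes were higher and 1.49% lower.

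Krt17 was at 243 CPM in basal-rule cells (3.28, 2.85 to 3.74) and at 214 in suprabasal-rule cells (3.46, 3.16 to 3.78). Krt8 was at 23.7 and 2.57 CPM in these layers, and Upk1b at 41.4 and 5.15. Of 11 periderm genes with enough UMIs, 11 were higher in members than in basal-rule cells, and 10 of 11 than in suprabasal-rule cells. These counts lean on the same filter, which genes high in members pass more easily. Notch1 was at 229 CPM in suprabasal-rule cells (0.03, -0.31 to 0.38) and at 65.1 in basal-rule cells (1.70, 0.93 to 2.54). Krtdap, which the suprabasal rule used, was at 842 CPM in suprabasal-rule cells (-3.03, -3.35 to -2.72). Cebpa, a factor of suprabasal differentiation, was at 116 CPM there (-2.17, -2.76 to -1.55).

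At E16.5 the 4 cells that met the rule were of 3 kinds, and the periderm keratins were abundant in 2 of them. Cells 1 and 2, of 58958 and 19910 UMIs, had all 5 rule genes: Krt4 had 472 and 101 UMIs, Krt6a 653 and 140, Krt19 321 and 135, Cldn4 6 and 8 and Gabrp 2 and 2. Cells 3 and 4, of 57766 and 41350 UMIs, met the rule with 3 genes at 1 to 3 UMIs each. Cell 3 held 200 UMIs of Krt79, a keratin of the upper hair follicle, and 198 of Krt17, and lay in a cluster led by Krt79, Lhx2 and Sox9. Cell 4 held 22 UMIs of Cldn5, 14 of Kdr and 9 of Pecam1, all endothelial genes, and lay in a cluster led by Ccl21a, Fabp4 and Cdh5. The doublet caller, which marked 84 cells of this library, marked none of the 4.

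Cells 1 and 2 carried surface genes at levels that no reference cell of the library reached. Krt7 was at 19336 and 7685 CPM in them, and the highest of the 1057 reference cells had 1108. Psca (chr15:74714839-74717069), a GPI-anchored surface protein, was at 19132 and 4922 CPM, with 149 in the highest reference cell. Cnfn (chr7:25367620-25369724), cornifelin of the cornified envelope, was at 26409 and 32245 CPM, with 4689.9 in the highest reference cell. Upk1b was at 2375 and 5625 CPM against 144, and Krt13, a keratin of mucosal surfaces, at 2035 and 402 CPM against 100.4. The same held for Upk3b, Sprr1a, Krt78, Mal, Cldn3, Slc2a3 and Anxa1: no reference cell was as high as the lower of the 2 cells. Most of these genes were picked for their large excess in these 2 cells over the same reference. The comparison thus describes the 2 cells and tests nothing.

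Envelope genes were abundant in their RNA. Cell 1 held 3116 UMIs and cell 2 held 865 of the 22 granular and cornified genes, and cells 3 and 4 held 12 and 4. Asprv1, a protease of the granular layer, had 1229 and 506 UMIs in cells 1 and 2, Mal, an apical sorting protein, 549 and 146, and Sprr1a, a small proline-rich envelope protein, 944 and 115. Its relative Sprr1b had 196 and 2 UMIs in the same cells, and Sprr3 144 and 24. Flg and Ivl had none in any of the 4 cells.

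Several keratins of the ordinary epidermal layers were low in these cells, and Krt15 was high. Krt14 was at 33.9 and 151 CPM against 3685 in the reference, from 2 and 3 UMIs. Krt5, a basal keratin that the rule used, was at 136 and 1557 CPM against 2091 in the reference, from 8 and 31 UMIs. Krt1 had 1 UMI in each cell, and Krt10 had 5 in cell 1 and 0 in cell 2. Krt17, which was high in the E13.5 members, had no UMI in either. Krt15 (chr11:100131758-100135928), a type I keratin of basal cells, had 846 and 667 UMIs, which is 14349 and 33501 CPM, against 1919.8 in the reference. Of genes of dividing cells, Top2a had 1 UMI in each cell and Mki67 none.

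Clustering without the rule genes put cells 1 and 2 with 50 other cells that held the spinous keratins. Krt10 was at 11079 and Krt1 at 10859.6 CPM in these 50 cells, and Krt7 at 2.81 CPM with UMIs in 2 of them. Psca and Mal had no UMI in the 50. Cnfn was at 161 CPM in them, with a UMI in 12, and Asprv1 at 538 CPM, with a UMI in 46.

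**Figure D5:**
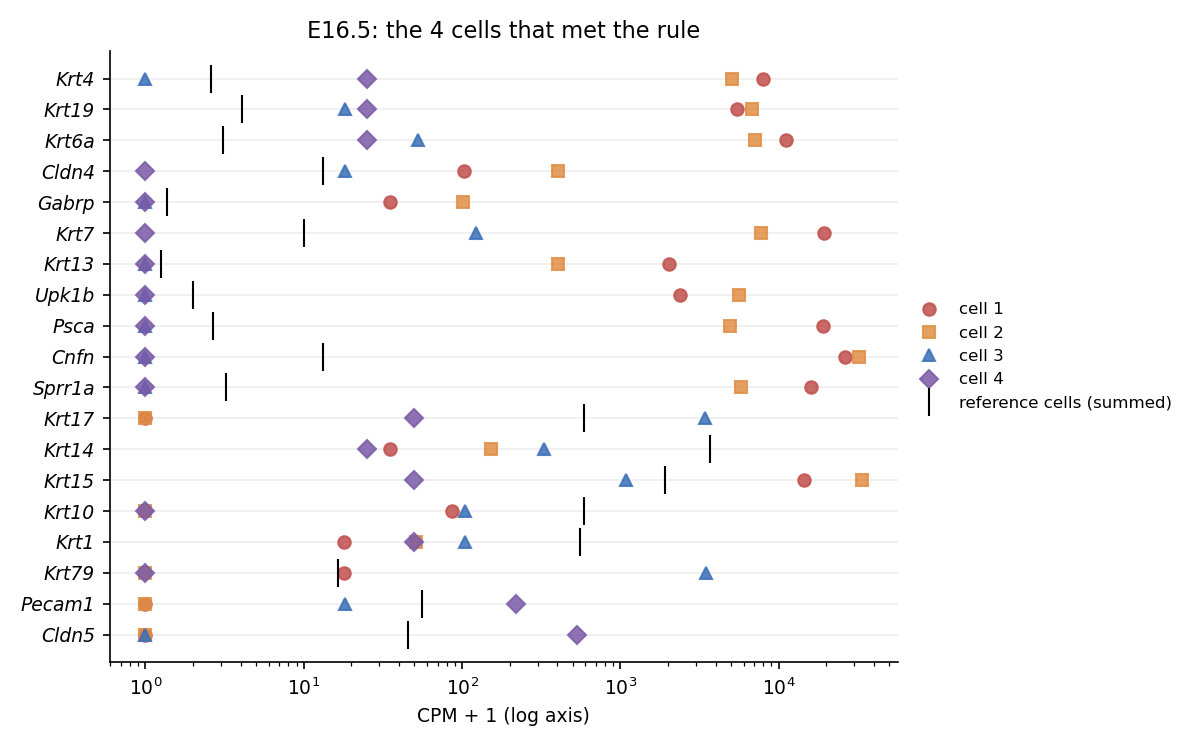
Levels of 19 genes (rows) in the 4 E16.5 cells that met the rule and in the summed reference (black bars), as CPM plus 1 on a log axis. Cells 1 and 2 lie together at high Krt4, Krt19, Krt6a, Krt7, Psca and Cnfn and low Krt14, while cell 3 is high in Krt79 and Krt17 and cell 4 in Pecam1 and Cldn5.

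Summed over the 4 cells, 867 of 11177 genes were higher than in the reference, 7.76%, and 677 were lower, 6.06%. With scaling by the median of ratios, a shift of -0.10 on the log2 scale, the counts were 1025 and 520. The median of all these genes was -0.22. Cells 1 and 2 gave 99.5% of the Krt7 UMIs of the 4 cells and 100% of the Psca UMIs. Of 13 periderm genes with enough UMIs 8 were higher and none lower, with a median of 2.44, and of 11 granular and cornified genes 9 were higher and none lower. Some of these genes passed the filter only through cells 1 and 2, so the counts lean on it. Krt13 had 4 UMIs in the whole reference, Upk3b 7 and Sprr1b 17. Of 18 G2 and M genes 9 were lower and none higher. This sum hides a difference between the cells. In cell 4 Top2a was at 701 CPM against 283 in the reference, whereas Ccnb1 had 0 UMIs there against 109 CPM. Of the other tissues, 6 of 7 dermal genes were lower and Cldn5 was the 1 higher of 5 endothelial genes. Of 4 upper follicle genes 3 were higher: Krt79, Plet1 and Cst6. Krt79 had 200 UMIs in cell 3 and 1 in cell 1. Plet1 had 38 and 25 UMIs in cells 1 and 2 and none in the others. Cst6 had 9 and 7 in cells 1 and 2 and 4 in cell 3. Just outside the threshold, 26 cells had 2 rule genes, with 2 to 11 UMIs of the rule genes in all and a median of 2, and 3 of them had Krt7.

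Set side by side, the E13.5 members and cells 1 and 2 of E16.5 had part of their genes in common. Of the 206 genes higher in the E13.5 members, 119 (57.8%) were also at least 2-fold higher in the summed cells 1 and 2 than in the E16.5 reference, against 826 (10.9%) of all 7566 genes. The 119 made up 14.4% of the 826. Of the 206, 25 were at least 2-fold lower. The share of all genes that were so was not computed, so the 25 are not read as a result. Both sets were chosen by the same 5 rule genes. Krt7 was at 508 CPM in the E13.5 members, beside 19336 and 7685 CPM in the 2 cells. Upk1b was at 295 CPM, beside 2375 and 5625. The libraries are single, so stage and library cannot be told apart.

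Other genes differed between the stages. Psca, Krt13, Krt78, Sprr3 and Cysrt1 had no UMI in the 86 members at E13.5, which at a limit of 3 counts over the group allows up to 3.002 CPM, or 3.49% of cells with a UMI, and Cnfn had 1 UMI and Sprr1a 2. Krt17 was at 2448 CPM at E13.5 and had no UMI in cells 1 and 2. Penk was at 819.5 CPM at E13.5 and at 33.9 and 50.2 in the 2 cells. Cldn6 was at 377 CPM and Cldn7 at 182 at E13.5, and neither had a UMI in the 2 cells. The rule genes, which chose the members at both stages, are given as a description. Gabrp was at 858 CPM at E13.5 and at 33.9 and 101 in the 2 cells, Krt4 at 37.0 and at 8006 and 5073, and Krt6a at 21.0 and at 11076 and 7032.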

How the data were processed

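Reads of 10x 3' v2 libraries had been aligned to mm10 and UMIs counted by the authors with Cell Ranger 2.2.0, and they had kept cells of 1750 genes or more and genes seen in 3 cells or more. The deposited values are on a natural log scale, ln(1 + x), where x is a gene's count after each cell's total was set to 10000. All 48197283 values above 0 came back as whole UMIs within a tolerance of 0.001. These summed to 53334740 UMIs at E13.5 and 66239195 at E16.5, with no cell under 3453 UMIs.

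Cells were chosen by the rule in the report, and the members and gene lists were chosen with earlier results of these data known. UMIs were summed per group. A gene was counted as higher or lower at a log2 difference of at least 1, pseudocount 10 CPM, with a 95% interval clear of 0, among genes with at least 50 UMIs over both groups. Shares have exact Clopper-Pearson intervals. UMIs are counted after amplification, and all intervals cover counting error only. Clusters came from the Leiden method at resolution 1 on 15 neighbours, in 30 principal components of 2000 variable genes (scanpy 1.11.5, leidenalg 0.10.2, Python 3.11.15), and doublets were called by Scrublet at an expected rate of 0.06. The method was tested on simulated data. The genes named are those of the lists and the 15 highest and 10 lowest differences of each stage; others are marked in the text or lead a cluster. Positions are from GENCODE vM21 (GRCm38). Alternatives changed the rule, the reference, the filter, the weight of cells and the scaling. The number of table columns that matched no sample was 0. No batch beyond the library itself is given by the labels. Some genes of the lists are not reported here.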

Additional observations from a re-analysis of the deposited data

Results flagged for a closer look

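Id2, a target of Bmp signalling, lay in opposite directions at the stages. Its difference between members and reference was -1.15 at E13.5, where it was at 47.0 against 116 CPM, and 2.01 at E16.5, where it was at 343 against 77.6 CPM, and 55 of its 61 UMIs there came from 1 cell. Cldn5, a claudin of endothelium, was at -1.62 at E13.5 (6.00 against 39.1 CPM) and at 1.29 at E16.5 (124 against 44.8 CPM), where all of its 22 UMIs came from cell 4, the cell with endothelial genes. The difference between the stages was not tested, since each has 1 library.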

How the results depend on the processing

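No paired analysis was possible because each stage has 1 library. At E13.5 the share of members was 4.49% with at least 4 of 5 rule genes, 40.9% with at least 2, 10.6% for the rule after thinning, 31.2% among cells of at least 2500 genes, 6.15% without Krt19 in the rule, 30.0% without cells holding Col1a1, Col3a1 and Lum, and 30.6% in the clusters of low Col1a1. The median of the periderm genes was 1.40, 2.55, 1.23, 2.21 and 1.38 under the first 5 of these and 2.33 in those clusters, 1.58 with cells weighted equally, 1.31 with no filter and 3.64 against reference cells with no rule gene. Genes higher numbered 94 after thinning, 332 at a pseudocount of 1 and 315 against cells with no rule gene. Genes lower numbered 313 with at least 4 rule genes, 54 with at least 2, 258 without Krt19, 100 without the collagen cells and 379 at a pseudocount of 1. At E16.5 at least 2 rule genes gave a share of 2.83%, 201 genes higher, 64 lower and a median of 1.37. At least 4 rule genes, or the rule without Krt6a or Krt19, left cells 1 and 2, with 1100 genes lower and a median of 3.49. The rule after thinning gave 1557 lower and 4.88, and leaving out the collagen cells left 1 member, with 374 higher, 298 lower and 4.85. No median turned its sign under any alternative run. The causes of these shifts were not tested. Leaving out called doublets was not run at E13.5, where none was called. The depth of 999439 UMIs at E13.5 limits what can be seen of genes under 3.002 CPM.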

Other observations

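At P0 the same rule found 1 of 1641 epithelial-rule cells. This cell had 56631 UMIs, of which Krt79 had 334, Krt17 422 and Krt14 297, while Krt19 had 5, Krt6a 7, Cldn4 1 and Krt4 and Gabrp none.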
